A study of Mus musculus with 4 samples.

Results

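The nuclear-encoded genes of respiratory complex I were followed in MDSCs treated with EGCG. The members are the 46 protein-coding genes whose symbols start with Nduf, of 53465 genes in the count table. By name and known role they comprise 7 core subunits, 29 accessory subunits, 8 assembly factors (the Ndufaf genes), and Ndufa4 with its relative Ndufa4l2. Ndufa4 carries an Nduf name but works in cytochrome c oxidase. That pair was therefore kept apart from the core, accessory and assembly classes. Counts and medians over all members include the pair, and those over tested members include Ndufa4. MDSCs are immature myeloid cells that build up in tumor-bearing hosts and restrain T cells. The cells came from spleens of BALB/c mice carrying 4T1 tumors (a mammary carcinoma line of that strain), were pulled out with beads against Gr-1, and were cultured for 6 h with EGCG at 5 μg/mL (a catechin of green tea) or without it, as the control. Both groups share the tumor and the Gr-1 selection, so that there is no tumor-free group. The mice were 6-week-old males, and tumors had grown for 21 days by the labels but for 2 weeks by the methods. Each group holds 2 libraries. No source used here says whether these came from separate mice or wells, so the p values measure only the spread between these libraries.

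Complex I, or NADH dehydrogenase, is the entry point for electrons from NADH into the respiratory chain of mitochondria. Its matrix arm oxidizes NADH and passes electrons along iron-sulfur clusters to ubiquinone, and its membrane arm pumps protons. The catalytic core is built from subunits encoded in both the nucleus and the mitochondrial genome. Accessory subunits surround and stabilize that core, and assembly factors help to build the enzyme but are absent from the finished complex. Mature neutrophils depend mainly on glycolysis, whereas immature myeloid cells keep more active mitochondria.

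After 6 h of EGCG, 40 of the 45 tested Nduf genes had a higher fitted level than in the control group, against 50.6% of all 14682 tested genes, but none of them passed the test. The tested members had a median log2 fold change of 0.15, all tested genes one of 0.0031. By edgeR's quasi-likelihood test (Benjamini-Hochberg over all tested genes), 0 members had an adjusted p under 0.05, where 0.150% of all tested genes did. At an unadjusted p under 0.05, 14 members, with Ndufa4 among them, were higher, against 5.22% of all tested genes. By the same rule 0 were lower, against 7.02%. DESeq2 gave an adjusted p to 24 of the 45 tested members, of which 0 were under 0.05, and among all 45 it had 5 higher at an unadjusted p under 0.05, against 2.59% of all tested genes in that fit. No single member therefore passed the threshold, with adjusted p values from 0.222 to 0.980 in edgeR. For 25 members both EGCG libraries lay above both control libraries, against 21.5% of all tested genes, and for 1 member they lay below, against 21.2%. With 2 libraries against 2, an exact permutation test cannot go below p = 0.33, so no gene was tested in that way.

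**Figure D1:**
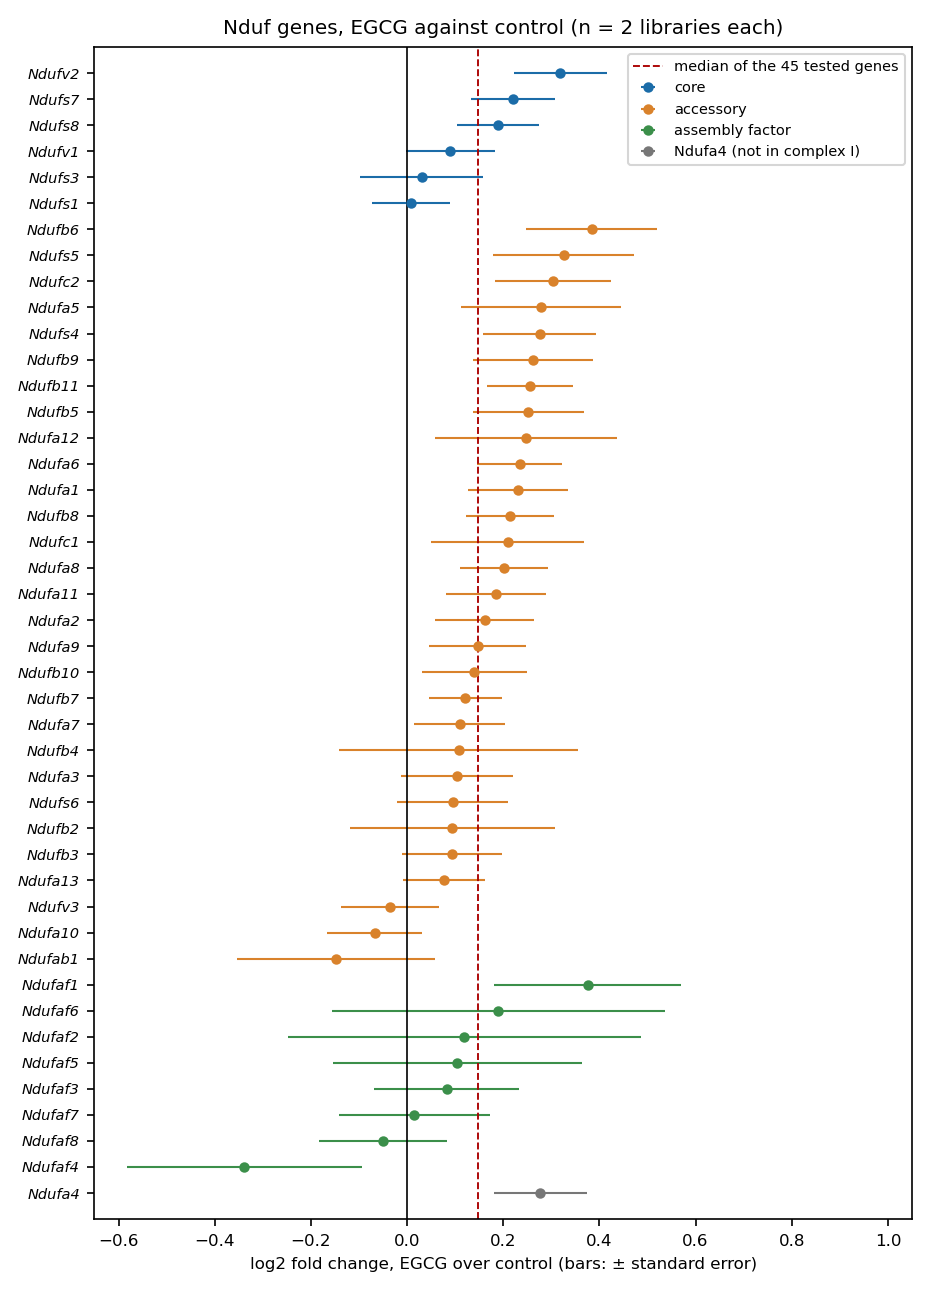
Log2 fold change of 44 of the 45 tested Nduf genes, EGCG over control, on the horizontal axis (points, with bars of ± 1 standard error; 2 libraries per group), grouped by role. The core genes shown all sit right of 0, 26 of the 29 accessory genes do, and the assembly factors scatter from -0.34 to 0.38; the dashed line marks the median of all 45, 0.15.

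The 4 libraries held between 17767318 and 18390385 counts, and the Nduf genes together took 0.127% and 0.136% of them in control and 0.143% and 0.144% with EGCG. Counts per tested member ran from 18 to 2059. The defining markers of granulocytic MDSCs were abundant in all libraries. These 8 symbols, S100a8, S100a9, Itgam, Ly6g and their partners, matched 9 gene entries, all included in the sum. It came to 47930 and 58620 CPM (counts scaled to the library size with TMM factors) in control. With EGCG it was 67310 and 57710 CPM, and 1 of the 9 entries was higher at an unadjusted p under 0.05. No marker of another cell type passed the test after adjustment. The counts that follow use an unadjusted p under 0.05, by which 7.02% of all tested genes were lower and 5.22% higher. The 4 endothelial markers were all lower with EGCG (summed level from 118 to 129 CPM in control and from 96.6 to 101 CPM with EGCG). Of the 6 macrophage markers, 3 were lower in the same way (from 320 to 335 CPM in control and from 266 to 276 CPM with EGCG). B cell markers summed to between 349 and 369 CPM in control and between 362 and 397 CPM with EGCG (1 of 5 higher), erythroid markers to between 142 and 180 CPM in control and between 172 and 191 CPM with EGCG (1 of 4 tested higher), and T cell markers to between 90.03 and 104 CPM in control and between 104 and 108 CPM with EGCG. Of the 5 basophil and eosinophil markers 2 were lower (from 1114 to 1240 CPM in control and from 945.6 to 1081 CPM with EGCG), as were 1 of 4 platelet markers (39.5 to 40.1 CPM and 33.5 to 34.5 CPM) and 1 of 6 monocyte markers (979 to 1016 CPM and 929.4 to 929.7 CPM). NK cell markers summed to 3.12 and 3.08 CPM in control and 2.48 and 2.80 CPM with EGCG, with 0 of 1 tested marker lower or higher. The 4T1 carcinoma markers summed to 4.66 and 3.86 CPM in control and 6.51 and 6.61 CPM with EGCG, with 1 of 2 tested markers higher and Krt19 at 0 counts. The part of these shifts in the Nduf values was not tested. In such bulk libraries, a change in the mix of cells and a change within cells cannot be told apart.

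The members lie on 17 chromosomes. Promoter sequences from RefSeq (GRCm38.p6, 250 bases before to 50 bases after the start) matched 40 of the 46 members. Since genes of this complex are known to share a few factors (NRF-1, the ETS factor GABP, and YY1), the promoters were searched on both strands for their core letters. The NRF-1 letters, GCGCA, any base and GCGC in a row, occurred in the promoters of 9 of these 40 members (22.5%), against 7.44% of 16403 protein-coding genes with a promoter in the table. CCGGAAG, the ETS letters, occurred in 6 members (15.0%), against 13.3% of all. AAGATGGC, the YY1 letters, occurred in 8 members (20.0%), against 3.63%. General promoter letters were searched alongside: CCAAT was in 14 members (35.0%, against 42.1% of all), the Sp1 letters GGGCGG in 21 (52.5%, against 51.0%) and TATAAA in 4 (10.0%, against 14.3%). In all 8 of those members the YY1 letters ran in the direction of the gene and began between 11 and 39 bases after its start; they contain the letters ATG of a start codon. Ndufs6 held both the NRF-1 and the YY1 letters and Ndufaf8 both the ETS and the YY1 letters, so that 21 members held at least 1 of the NRF-1, ETS and YY1 motifs. Of the 14 members with an unadjusted p under 0.05, 8 held at least 1 of these 3. Among the other 32 members, of which 26 had a promoter in the table, 13 did. A match describes the letters only, and binding was not measured.

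For each motif, the 3 members with the smallest unadjusted p are shown as 30 bases on the strand of the gene, with the matched letters in capitals. The NRF-1 letters are shown in accessory subunit genes, at chr15:82354249-82354278 (minus strand) for Ndufa6, chr4:123718265-123718294 (minus strand) for Ndufs5 and chr2:36049349-36049378 (minus strand) for Ndufa8. In Ndufa6 and Ndufa8 the match is on the opposite strand.
Ndufa6: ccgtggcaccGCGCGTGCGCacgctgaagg
Ndufs5: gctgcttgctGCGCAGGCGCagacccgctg
Ndufa8: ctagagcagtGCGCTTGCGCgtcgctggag

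The ETS letters are shown at chr4:40279635-40279664 for Ndufb6, chr19:3912741-3912770 for Ndufs8 and chr2:119662834-119662863 for Ndufaf1, all on the minus strand of the chromosome. For Ndufb6 and Ndufs8 the match is on the opposite strand of the gene, and for Ndufb6 it begins at position -232 from the start.
Ndufb6: tcgtccttgttCTTCCGGtcccctccccta
Ndufs8: ttaggctccgcCTTCCGGttgaaccgcatc
Ndufaf1: cgggaccacaaCCGGAAGcgtggcgaaccg

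The YY1 letters are shown at chr10:80249462-80249491 (plus strand) for Ndufs7, chr13:114388045-114388074 (minus strand) for Ndufs4 and chr19:44555393-44555422 (minus strand) for Ndufb8. In these the matched letters begin 25, 36 and 39 bases after the start.
Ndufs7: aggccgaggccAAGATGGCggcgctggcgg
Ndufs4: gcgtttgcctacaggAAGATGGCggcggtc
Ndufb8: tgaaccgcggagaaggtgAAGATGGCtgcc

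All 7 core genes had a log2 fold change above 0 (median 0.12), and 3 of them, Ndufv2, Ndufs7 and Ndufs8, were higher at an unadjusted p under 0.05 (5.22% of all tested genes). Ndufv2 (ENSMUSG00000024099, chromosome 17 of GRCm38 from 66078638 to 66101559) encodes an iron-sulfur subunit at the NADH-oxidizing tip. Its level was 34.7 and 40.4 CPM in control and 47.7 and 45.9 CPM with EGCG. Both EGCG libraries lay above both controls, with means of 37.5 ± 4.06 and 46.8 ± 1.27 CPM (SD, n = 2). The log2 fold change of Ndufv2 was 0.32 (standard error 0.10), the smallest unadjusted p of all members was 0.00535, and its adjusted p in edgeR was 0.222. Ndufv1, which binds FMN and accepts the electrons of NADH next to Ndufv2, had overlapping groups: 44.2 and 49.1 CPM in control and 47.3 and 52.1 CPM with EGCG, a log2 fold change of 0.09 (standard error 0.09). Ndufs1, the largest iron-sulfur subunit of this tip, was level across the libraries, at 58.8 and 61.9 CPM in control and 61.2 and 60.1 CPM with EGCG. Its log2 fold change was 0.0077 (standard error 0.08). So the 3 core genes of the tip, whose proteins sit side by side, had fold changes from near 0 to the highest of the core. Whether these fold changes differ from each other was not tested.

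In the stem of the complex, where ubiquinone is bound, Ndufs7 (chromosome 10 from 80249121 to 80256794) encodes the carrier of the last iron-sulfur cluster of the chain. Its level was 43.5 and 41.0 CPM in control and 50.1 and 48.3 CPM with EGCG. The groups did not overlap, and the fold change was 0.22 on the log2 scale (standard error 0.09, adjusted p 0.339 in edgeR). Ndufs8, which holds a pair of iron-sulfur clusters on the way to ubiquinone, was at 53.8 and 58.5 CPM in control and 62.6 and 65.5 CPM with EGCG. Its groups did not overlap either (log2 fold change 0.19, standard error 0.08, adjusted p 0.394 in edgeR). Ndufs3, also part of the stem, showed no separation of the groups: the lowest and the highest of its 4 values, 16.7 and 21.1 CPM, were both EGCG libraries (19.2 and 17.9 CPM in control).

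Among the 29 accessory genes, 26 had a log2 fold change above 0 (median 0.18), and 10 were higher at an unadjusted p under 0.05 (5.22% of all tested genes). In 19 of them both EGCG libraries exceeded both control libraries (21.5% of all tested genes), and in 0 both lay below (21.2%). By position in the complex, median log2 fold changes were 0.20 for the 9 genes of the proximal membrane arm, 0.18 for the 10 genes of the distal membrane arm, 0.17 for the 6 genes of the quinone-binding stem (core genes included) and 0.14 for the 10 genes of the NADH-oxidizing tip (core genes included). Differences between these positions were not tested.

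The distal membrane arm, where the outer proton channels lie, held the accessory genes with the 2 smallest p values. Ndufb11 (chromosome X from 20615326 to 20617619), a subunit with a single membrane helix, was at 85.5 and 103.0 CPM in control and 113.6 and 111.4 CPM with EGCG. Both EGCG libraries were higher, and control replicate 1 was well below the other libraries. The log2 fold change of Ndufb11 was 0.26 (standard error 0.09, adjusted p 0.275 in edgeR). Ndufb6 (chromosome 4 from 40270591 to 40279421) was at 12.9 and 17.3 CPM in control and 19.5 and 19.9 CPM with EGCG. It was the member with the largest log2 fold change, 0.38 (standard error 0.14, adjusted p 0.280 in edgeR), and here too control replicate 1 was the lowest. Ndufb8 was at 37.6 and 39.8 CPM in control and 43.0 and 46.9 CPM with EGCG, and Ndufb5 at 15.9 and 18.1 CPM in control and 20.1 and 20.4 CPM with EGCG. Their log2 fold changes were 0.21 (standard error 0.09) and 0.25 (0.11), without overlap of the groups. Of the remaining distal genes, picked out with their values known, Ndufb7 and Ndufb9 also had groups that did not overlap, whereas Ndufb2, Ndufb3, Ndufb4 and Ndufb10 overlapped.

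In the proximal membrane arm, which joins the matrix arm, 4 of 9 accessory genes were higher at an unadjusted p under 0.05 (5.22% of all tested genes). Ndufc2 was at 15.0 and 17.96 CPM in control and 19.7 and 21.0 CPM with EGCG, a log2 fold change of 0.30 (standard error 0.12, adjusted p 0.339 in edgeR). Ndufs5 and Ndufa8 encode subunits held together by disulfide bonds on the intermembrane side. Ndufs5 was at 9.64 and 11.8 CPM in control and 12.4 and 14.4 CPM with EGCG (log2 fold change 0.33, standard error 0.15). Ndufa8 was at 64.8 and 63.7 CPM in control and 67.5 and 80.3 CPM with EGCG (0.20, standard error 0.09), so that a single EGCG library stood clear of the others. Ndufa1, a small membrane subunit encoded on the X chromosome, was at 27.3 and 31.8 CPM in control and 36.1 and 33.3 CPM with EGCG (0.23, standard error 0.10). Ndufa10 went the other way in its fitted value, but with overlapping libraries: 29.7 and 31.2 CPM in control and 27.7 and 30.5 CPM with EGCG, a log2 fold change of -0.07 (standard error 0.10).

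At the NADH-oxidizing tip, the accessory genes Ndufa6 and Ndufs4 had an unadjusted p under 0.05. Ndufa6, a protein of the LYR family that anchors an acyl carrier protein to the complex, was at 44.9 and 50.4 CPM in control and 56.1 and 56.0 CPM with EGCG. The EGCG libraries almost coincided and lay above both controls (log2 fold change 0.23, standard error 0.09, adjusted p 0.318 in edgeR). Ndufs4, which is needed to hold the tip on the complex and whose loss causes mitochondrial disease, was at 26.8 and 34.8 CPM in control and 38.8 and 35.7 CPM with EGCG. Its log2 fold change was 0.28 (standard error 0.12), but control replicate 2 lay close to EGCG replicate 2. Ndufab1, the acyl carrier protein itself, which sits in both arms, had its highest value in control replicate 1 (6.30 CPM) and its lowest in EGCG replicate 1 (4.41 CPM), with 5.04 CPM in control replicate 2 and 5.82 CPM in EGCG replicate 2. Its log2 fold change was -0.15 (standard error 0.21). The pseudogene Ndufab1-ps had 12 and 12 counts in control and 15 and 11 with EGCG, and 11.7% of the 31-base words of Ndufab1 transcripts also occur in transcripts of other genes. Ndufv3 had a log2 fold change of -0.04 (standard error 0.10), with 43.2 and 52.8 CPM in control and 47.9 and 45.7 CPM with EGCG.

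The 8 assembly factors had a median standard error of 0.22, against 0.09 for the core and 0.11 for the accessory genes. Of these factors, 6 had a log2 fold change above 0 (median 0.09), against 50.6% of all tested genes. In edgeR 0 had an unadjusted p under 0.05 (adjusted p from 0.468 to 0.980), against 12.2% of all tested genes in either direction. Their counts ran from 18 per library (Ndufaf2) to 214 (Ndufaf8). Ndufaf1, which works on the membrane arm together with Ecsit and Acad9, was at 4.60 and 6.32 CPM in control and 7.50 and 6.66 CPM with EGCG. Its EGCG libraries did not overlap the controls (log2 fold change 0.38, standard error 0.19, adjusted p 0.468 in edgeR). Ndufaf4, a partner of Ndufaf3 in building the stem, was the member with EGCG libraries below both controls. It was at 3.01 and 3.25 CPM in control and 2.37 and 2.58 CPM with EGCG, from 43 to 58 counts per library, and its log2 fold change was -0.34 (standard error 0.24). Ndufaf3 itself was at 9.31 and 11.8 CPM in control and 10.9 and 11.4 CPM with EGCG, so that its groups overlapped.

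Ndufaf5, an enzyme that hydroxylates Ndufs7, was at 2.41 and 2.29 CPM in control and 2.37 and 2.69 CPM with EGCG. Its partner Ndufaf8 was at 11.6 and 12.0 CPM in control and 11.1 and 11.7 CPM with EGCG. Ndufaf7, a methyltransferase, was at 7.996 and 8.17 CPM in control and 8.604 and 7.73 CPM with EGCG. All of these had overlapping libraries, with log2 fold changes of 0.10, -0.05 and 0.01. Ndufaf6 (22 to 34 counts per library) and Ndufaf2 (18 to 30 counts) had log2 fold changes of 0.19 and 0.12. Their standard errors, 0.35 and 0.37, were larger than these fold changes. For Ndufaf2, 65.1% of the 31-base words are shared with other genes, mostly with an overlapping transcript on the opposite strand.

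Ndufa4, the subunit of cytochrome c oxidase with an Nduf name, was at 36.0 and 41.9 CPM in control and 46.7 and 47.8 CPM with EGCG. Its groups did not overlap, and its log2 fold change of 0.28 (standard error 0.10, adjusted p 0.272 in edgeR) lay within the range of the complex I subunits. Ndufa4l2, which is known as a gene induced by hypoxia, had 0 counts in both control libraries and 1 and 0 counts in the EGCG libraries. It was the member left out by the count filter, and at such counts no fold change can be given.

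The libraries did not contribute equally. Control replicate 1 was the lowest of the 4 libraries for 32 of the 45 tested members, whereas it was the lowest for 29.3% of all tested genes. The median log2 ratio of a member to its own geometric mean over the libraries was -0.15 in control replicate 1, -0.0080 in control replicate 2, 0.08 in EGCG replicate 1 and 0.09 in EGCG replicate 2. For the core genes these medians were -0.09, -0.04, 0.06 and 0.11, and for the accessory genes -0.16, -0.02, 0.11 and 0.09, in the same order of libraries. The assembly factors did not follow the groups, with -0.12 and 0.08 in control and -0.05 and 0.09 with EGCG. Without control replicate 1, 37 members had a log2 fold change above 0 (median 0.10), of which 36 were above 0 with all libraries, but only 1, Ndufs7, was higher at an unadjusted p under 0.05, against 2.59% of all genes tested in that fit. The median of the assembly factors then fell to -0.04. Without control replicate 2 the median of the members was 0.22, and 5 members (Ndufb11, Ndufb6, Ndufb9, Ndufs4 and Ndufv2) had an adjusted p under 0.05 in edgeR, from 0.0182 to 0.0317, against 0.777% of all tested genes higher by the same rule. Single genes moved too. Without control replicate 1 and without control replicate 2, respectively, the log2 fold change was 0.19 and 0.61 for Ndufb6 and 0.17 and 0.62 for Ndufaf1. In the same order it was 0.10 and 0.48 for Ndufs4, 0.13 and 0.40 for Ndufb11, and 0.19 and 0.48 for Ndufs5. Ndufc2 had 0.18 and 0.44, Ndufa1 0.13 and 0.35, Ndufb5 0.16 and 0.35, Ndufa4 0.18 and 0.39, and Ndufv1 0.02 and 0.17. The log2 fold change of Ndufa8 was 0.07 without EGCG replicate 2 and 0.32 without EGCG replicate 1. In these fits the lone library of a group is assumed to vary like the other group.

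**Figure D2:**
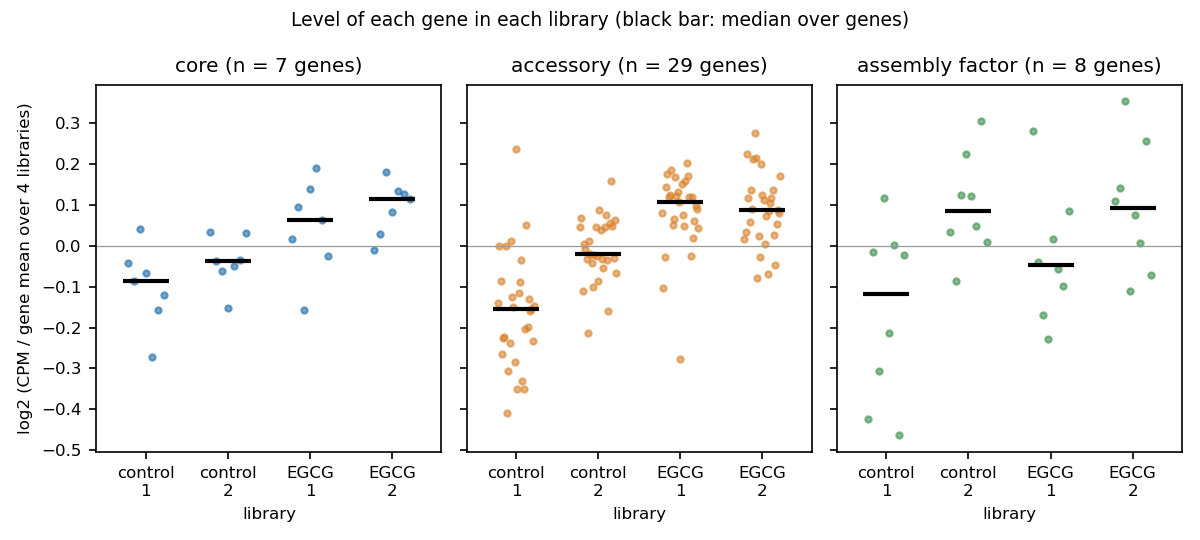
Level of each gene in each library, as log2 of its CPM over its geometric mean across the 4 libraries (vertical axis), for core, accessory and assembly genes; each point is a gene and each black bar the median. The medians of the core and accessory genes lie below 0 in both control libraries, lowest in control replicate 1 (-0.09 and -0.16), and above 0 in both EGCG libraries.

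Levels of different genes were compared per length, as RPKM (CPM per kilobase). Over all annotated exonic bases the median of the 46 members was 14.4 RPKM, and over the principal transcript alone, a length chosen after the data were seen, it was 25.6 RPKM. For several members the exonic bases of all annotated transcripts together exceed the principal transcript, for example 4522 bases against 623 for Ndufb7. Per principal transcript the core genes named here spanned from 17.9 RPKM (Ndufs3) to 59.8 RPKM (Ndufs8), although each core protein is present in a single copy per complex. The accessory genes spanned a wider range. It ran from 0.923 RPKM (Ndufb2) and 1.55 RPKM (Ndufab1) to 114 RPKM (Ndufb11) and 136 RPKM (Ndufb7). The principal transcripts used were long for Ndufb2 (4371 bases) and Ndufab1 (3479 bases). Exons of Ndufb2 also overlap those of Gm16272, Braf and Gm42420. How far length and overlap lower these values was not tested. With all exonic bases Ndufb11 came first (114 RPKM), followed by Ndufa8 (80.2 RPKM) and Ndufa1 (76.7 RPKM), and Ndufb2, Ndufab1 and Ndufb4 were the lowest accessory genes by either length. Ndufb2 (67 to 82 counts) and Ndufb4 (44 to 54 counts) showed no separation of the groups, with log2 fold changes of 0.09 and 0.11 (standard errors 0.21 and 0.25). For Ndufb4, 19.1% of the 31-base words also occur in other genes, among them Ndufb4c, and reads that fit several places may be missing from its count. The assembly factors ran from 0.771 RPKM (Ndufaf4) to 14.8 RPKM (Ndufaf8) per principal transcript, below every core gene.

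**Figure D3:**
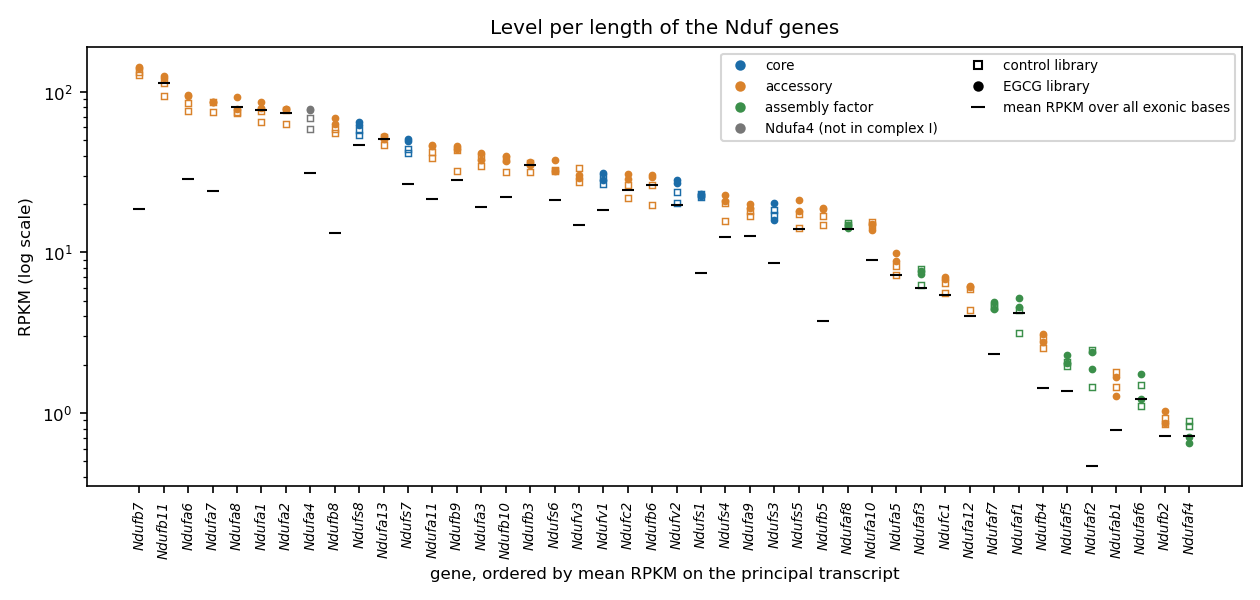
Level per length of 44 of the 45 tested Nduf genes (RPKM, log scale), ordered by the mean on the principal transcript; open squares are control libraries, filled circles EGCG libraries, and black dashes the mean over all exonic bases. The core genes shown lie between 17.9 and 59.8 RPKM, and all 8 assembly factors lie below 15 RPKM on the principal transcript.

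Nduf genes are short, and fold changes in these libraries varied with length. Across 14666 tested genes the log2 fold change had a Spearman correlation of -0.286 with exonic length; genes share libraries and are not independent replicates. The median exonic length was 1718 bases for the 45 tested members and 3814 bases for all tested genes. Among the shortest sixth of the tested genes (up to 1441 bases) the median log2 fold change was 0.09, and the 19 members in it had a median of 0.19. In the second sixth (up to 2642 bases) the medians were 0.07 for all genes and 0.14 for 14 members, and in the third (up to 3814 bases) 0.03 and 0.07 for 6 members. The 3 longest sixths held 6 members. After the trend with length was removed in each library, the median was 0.12 for the members and 0.02 for all tested genes, and 40 members were still above 0. At an unadjusted p under 0.05, 8 members were then higher, against 5.30% of all tested genes, and the smallest adjusted p of a member in edgeR was 0.323. Log2 fold changes of the 14 members with an unadjusted p under 0.05 before this correction ran from 0.12 (Ndufa1, 0.23 before) to 0.30 (Ndufb6, 0.38 before) after it. Ndufa8 went from 0.20 to 0.13, Ndufs4 from 0.28 to 0.26 and Ndufv2 from 0.32 to 0.29.

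**Figure D4:**
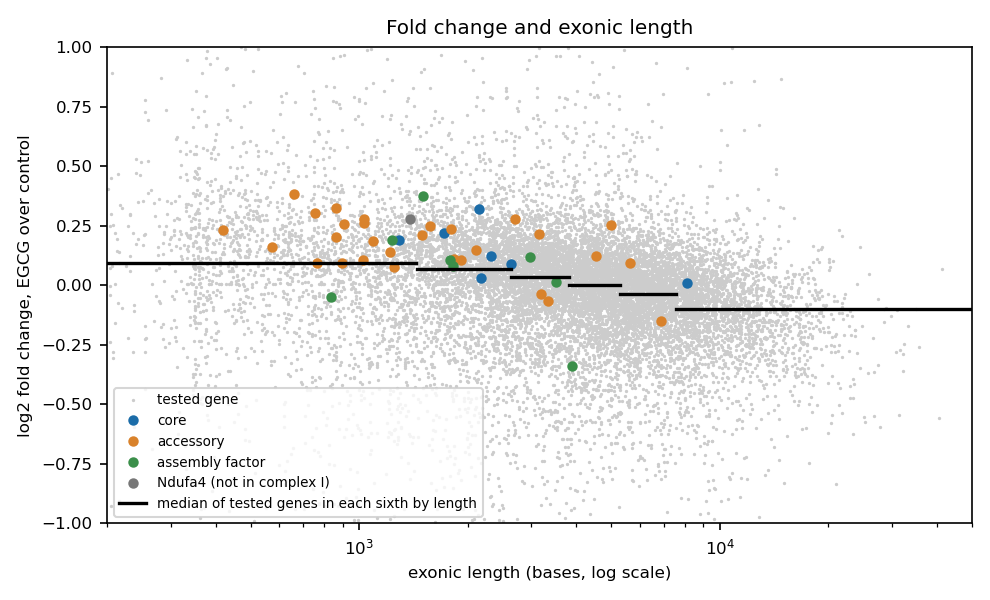
Log2 fold change (EGCG over control, vertical axis) against exonic length (bases, log scale) for all tested genes in grey and for the Nduf genes in color; black bars are medians of all tested genes in each sixth by length, from 0.09 in the shortest to -0.10 in the longest. The axes leave out 182 genes with a log2 fold change of 1 or more in size and 112 very short or very long genes, and the 19 Nduf genes of the shortest sixth have a median of 0.19.

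Counting ignored the strand of reads, and in GENCODE M21 exons of 19 members overlap exons of another gene. For 14 members over 10% of the 31-base words occur elsewhere, for example for Ndufb6 (34.4%, with Smim27 on the opposite strand), Ndufb11 (29%, mostly with the gene Gm6444), Ndufs5 (26.5%) and Ndufs3 (25.4%). Their counts are uncertain to that extent. Among the 31 other tested members, 27 had a log2 fold change above 0 (50.6% of all tested genes), 10 were higher with an unadjusted p under 0.05 (5.22%), and the median was again 0.15.

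The mitochondrial genome encodes the membrane core of the complex, and its 7 complex I genes were compared as a list. By edgeR 0 of 7 had an adjusted p under 0.05, and 2, mt-Nd1 and mt-Nd4, were higher at an unadjusted p under 0.05 (5.22% of all tested genes). That number was 0 with the length correction and ran from 0 to 4 with a library left out. Their median log2 fold change was 0.16. The level of mt-Nd1 was 527 and 589 CPM in control and 693 and 599 CPM with EGCG (log2 fold change 0.21, standard error 0.09). For mt-Nd4 it was 329 and 358 CPM in control and 446 and 354 CPM with EGCG (0.22, standard error 0.10), so that EGCG replicate 1 alone stood above the other libraries. With mt-Nd3 and mt-Nd4l at 8 to 18 counts per library, the list rests on 5 genes.

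Assembly factors that do not carry the Nduf name gave 0 of 8 tested genes with an adjusted or an unadjusted p under 0.05 in edgeR (0.150% and 12.2% of all tested genes), with log2 fold changes from -0.31 (Nubpl) to 0.26 (Tmem186). Ecsit and Acad9, the partners of Ndufaf1, had log2 fold changes of 0.19 (standard error 0.20) and -0.09 (0.14). Among regulators of mitochondrial genes, 0 of 10 tested genes had an adjusted or an unadjusted p under 0.05 in edgeR, next to the same shares. Nrf1, which encodes NRF-1, was at 49.3 and 50.7 CPM in control and 49.6 and 53.5 CPM with EGCG. Gabpa, an ETS factor subunit, was at 59.8 and 64.0 CPM in control and 62.0 and 65.2 CPM with EGCG, and Yy1 at 198 and 194 CPM in control and 212 and 217 CPM with EGCG. Their log2 fold changes were 0.04, 0.04 and 0.13 (standard errors 0.09, 0.08 and 0.07). The coactivator gene Ppargc1a had 2 to 7 counts per library and was not tested.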

How the data were processed

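RNA of 2 control and 2 EGCG libraries was sequenced. According to the methods and the submitters' processing notes, the authors aligned reads to GRCm38 with STAR 2.6.0c, counted them with featureCounts 1.6.2 on an Ensembl annotation, and deposited raw counts per gene (whole numbers, not normalized). There were 0 columns of other samples.

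The whole table was fitted: filterByExpr (minimum count of 10), TMM scaling and the legacy quasi-likelihood test in edgeR 4.0.16 (R 4.3.3), with Benjamini-Hochberg adjustment and a threshold of 0.05. Standard errors are the log2 fold change over the square root of F. Lengths, positions, exon overlaps and 31-base words came from GENCODE M21 (GRCm38), promoters from RefSeq (GRCm38.p6). GENCODE M21 is not the release the authors counted on, so overlaps and lengths may differ from those behind the counts. The length correction subtracts a loess trend (span 0.4) of log count on log length in each library. The edgeR fit and the length correction were checked on simulated data. Alternatives were other scalings, filters and fits, DESeq2 1.42.0, a replicate block, and leaving out each library.

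Named genes were all core and Ndufaf genes, Ndufa4 and Ndufa4l2, and accessory genes with the 10 smallest p values, the 3 highest or 3 lowest RPKM, or a negative fold change; others are named where an overlap, a motif or a left-out library turned on them, after their values were seen. Values of 1 core gene are not reported here by name; it stays in the counts and medians. Members and lists were chosen with earlier results of these data known.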

Additional observations from a re-analysis of the deposited data

How the results depend on the processing

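With 2 libraries per group, the members had a median log2 fold change of 0.15 and a median standard error of 0.11. Ndufaf2, Ndufaf4, Ndufaf5, Ndufaf6, Ndufb2 and Ndufb4 have under 100 counts in every library. Under the 10 alternatives of scaling, filter, test, length and block, 0 of the members given an adjusted p were under 0.05 (24 members had one with DESeq2, 42 with a minimum count of 50, and at least 45 in the others). Among all tested genes, 0 (no count filter) to 151 (library size only) were under 0.05 in these fits. Members under 0.05 with a library left out are given above, and there a lone library stands for its group. Members higher at an unadjusted p under 0.05 numbered 7 with library size only (3.21% of all tested genes), 9 without a count filter (2.83%), 5 with DESeq2 (2.59%), 8 with the length correction (5.30%), and 1 to 16 with a library left out (2.59% to 6.78%). Deviations of replicate 1 from its group mean had a correlation across genes of 0.0336 between control and EGCG. With 2 libraries per group, replicate 2 only mirrors replicate 1. This value therefore cannot show whether the replicate numbers pair the libraries. With the replicate block in edgeR, 14 members were higher at an unadjusted p under 0.05, against 5.24% of all tested genes. In that fit 0 members had an adjusted p under 0.05, against 30 of 14682 tested genes.

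Over the fits lacking 1 library, median log2 fold changes ran from 0.10 to 0.22 for all members, 0.10 to 0.19 for core, 0.11 to 0.25 for accessory and -0.036 to 0.17 for assembly genes; the last median was 0.010 with a minimum count of 50, 0.059 with library size only and 0.060 with the length correction. Members with every EGCG library below every control library numbered 4 with library size only (25.8% of all tested genes) and 2 with upper-quartile scaling (19.8%). With a library left out, such members numbered 2 to 7 (32.7% to 36.8%). Mitochondrially encoded genes at an unadjusted p under 0.05 numbered 1 with library size only (12.8% of all tested genes in either direction), without a filter (6.53%) or with a minimum count of 50 (13.5%), 0 with the length correction (10.3%), and 0 to 4 with a library left out (6.52% to 14.4%). By the same fits, regulators numbered 1 with library size only, 2 with the length correction and 0 to 2 with a library left out. The median level was 25.6 RPKM per principal transcript in place of 14.4 RPKM.

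Of 30 named genes tested, 20 kept their direction under each alternative that fitted them, and 19 of these were fitted under all 14. With library size only, log2 fold changes turned to -0.027 for Ndufs1, -0.0055 for Ndufs3 and -0.020 for Ndufaf7. With a library left out they ran from -0.025 to 0.048 for Ndufs1, -0.15 to 0.19 for Ndufs3, -0.063 to 0.091 for Ndufaf7, -0.14 to 0.0028 for Ndufa10, -0.092 to 0.43 for Ndufaf6, -0.033 to 0.21 for Ndufb2, -0.36 to 0.041 for Ndufab1, -0.072 to 0.26 for Ndufaf3, -0.21 to 0.55 for Ndufaf2 and -0.17 to 0.12 for Ndufv3. The cause of these shifts was not tested.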
